A study of Homo sapiens with 16 samples.

Results

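The genes of the proteasome were taken by symbol, as every gene named PSM with a letter from A to G and a number. The rule gave 48 of the 28207 human genes counted. By name they fell into 19 genes of the core particle (PSMA and PSMB), 20 of the regulatory particle (PSMC and PSMD), 4 activators (PSME) and 5 others (PSMF1 and the PSMG assembly chaperones). Their RNA was measured by RNA sequencing of total RNA from 16 libraries of U2OS cells, a line grown from a human bone tumour (osteosarcoma). The groups were zdna1 CL, zdna1 CC, zdna2 CL, zdna2 CC, zdna3 CL, zdna3 CC, zdna4 CL and zdna4 CC, with 2 libraries each. The genotype label of a library is its number and arm joined, and neither the numbers nor the arms are spelled out. No arm is therefore called a control here, and differences between arms are given as CL over CC. The files of each number carry 1 extra reference sequence of that number. All groups share the cell line, and whether a number is 1 clone or a pool of cells is not given in the sources used here. The title of the series names the transcription factor MYC, the histone chaperone FACT and Z-DNA, a DNA helix that winds to the left.

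The proteasome degrades proteins that carry chains of ubiquitin, a small protein tag. Its core particle is a barrel of outer rings of alpha subunits, which gate the entry, and inner rings of beta subunits, some of which cut the substrate. The regulatory particle caps the barrel: a ring of ATPases (PSMC) unfolds the substrate, and the PSMD subunits bind ubiquitin, remove it or hold the lid together. Activators such as PA28 and PA200 are alternative caps, and the PSMG chaperones help to build the core. The subunits of a ring are present in equal number in each particle, and their genes are known to be induced together by the transcription factor NFE2L1 when proteasome activity is low. Fast-growing tumour cells are known for their dependence on proteasome activity.

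Libraries were shallow, with 39335 to 310187 reads on human genes, so that 1 read stood for 3.22 to 25.4 CPM (reads scaled to the human-gene total of the library). Proteasome genes took 179 to 1735 reads per library, or 0.455% to 0.712% of the human-gene reads. The zdna4 CC libraries stood apart from the rest. Olfactory receptor genes, which most tissues do not use, summed to 1449 and 1492 CPM there, against 55.3 to 396 CPM in the other 14 libraries. At that read density 14.8 and 15.8 of the 179 and 203 proteasome reads of the zdna4 CC libraries would fall on the proteasome genes without regard to their expression. Results that use zdna4 CC are given with this in view, and the part of such reads in them was not tested. Markers of the osteoblast lineage, with 9 of 12 genes detected, summed to 2644 to 4296 CPM. Osteocalcin (BGLAP), IBSP and TWIST1 were at 0 in all libraries. Epithelial markers (6 of 6 with a read) summed to 0 to 108 CPM, endothelial markers (4 of 4) to 0 to 189 CPM and blood cell markers (3 of 6, with CD3E, HBA1 and HBB at 0) to 0 to 35.7 CPM. The highest epithelial and endothelial sums were those of the first zdna4 CC library.

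Of the 48 genes, 35 had a read in all 16 libraries and 1, PSMA8, had none. The 37 genes that averaged 50 CPM or more entered the tests, and the 11 below it are given as levels alone. Levels between genes are compared per length, as CPM per kb of merged exons, averaged over the 8 group means with their SD (n = 8). Within the outer ring PSMA7 was highest, at 205 ± 38.2 CPM per kb, and PSMA4 was lowest of the genes detected, at 29.7 ± 11.8 CPM per kb. In the inner ring PSMB3 led with 141 ± 28.3 CPM per kb. Levels per length thus spread widely within each ring, although the proteins of a ring are present in equal number. The length used joins the exons of all annotated transcripts of a gene.

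Among the ATPases PSMC3 stood at 185 ± 27.4 CPM per kb, and PSMC1 at 12.4 ± 4.08 CPM per kb. The PSMC1 value is uncertain, because 80.8% of its exon length lies over NRDE2 on the opposite strand, and the counting command in the file headers sets neither a strand nor an option for reads over more than 1 gene. PSMD2, the scaffold of the regulatory base, led the PSMD genes with 178 ± 30.1 CPM per kb, and PSMD10 (gankyrin, an assembly chaperone) was lowest with 6.76 ± 5.58 CPM per kb. The activators lay close together, from 68.8 ± 15.5 CPM per kb for PSME3 (PA28 gamma, the nuclear form) to 48.1 ± 3.77 CPM per kb for PSME4 (PA200). PSMG2 reached 112 ± 20.6 CPM per kb among the assembly chaperones, and PSMG4 6.26 ± 3.65 CPM per kb. PSMF1, the inhibitor PI31, stood at 14.5 ± 1.64 CPM per kb. Ordered by level, 2 of the 47 gaps between neighbours exceeded the SD of both: that between PSMD5 (22.5 ± 6.14) and PSMG1 (16.2 ± 5.37), and that between PSMG4 and PSMB9 (2.42 ± 3.12 CPM per kb). Other neighbours did not differ beyond their spread.

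**Figure D1:**
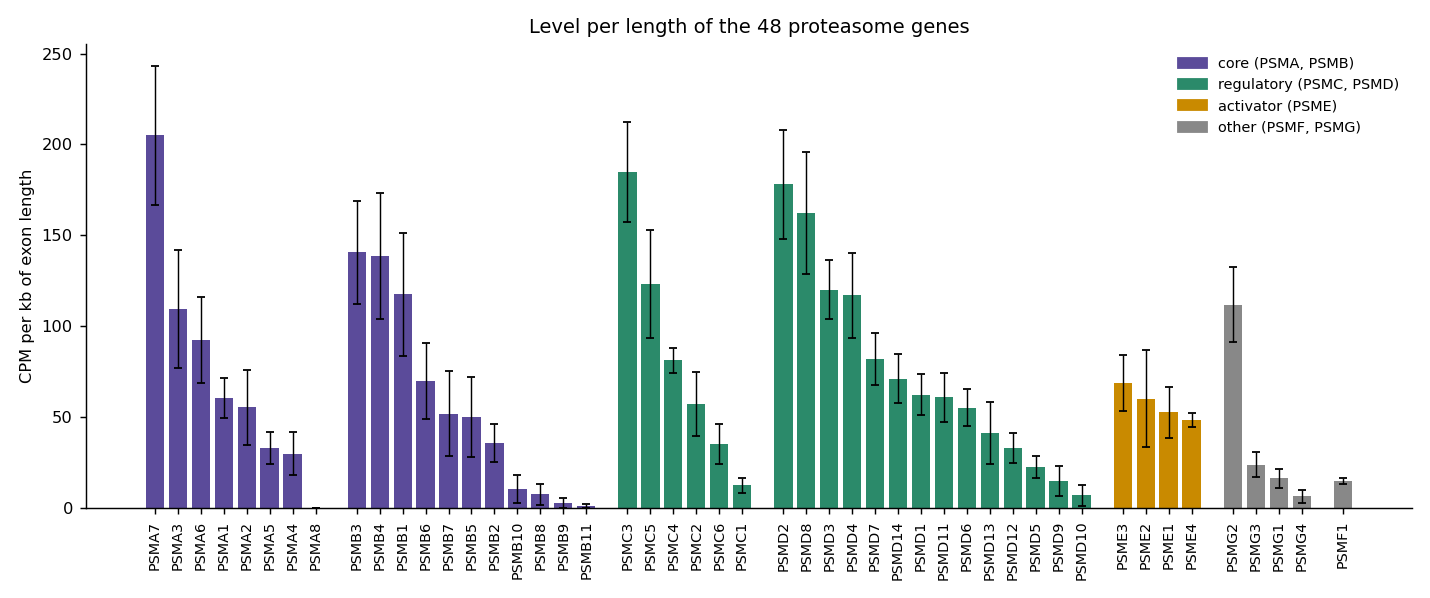
Bars give the level of each of the 48 proteasome genes in CPM per kb of exon length, as the mean of 8 group means, with error bars of 1 SD over the groups (cut at 0), grouped by ring and coloured by subcomplex. PSMA7 (205), PSMC3 (185) and PSMD2 (178 CPM per kb) are the highest bars, and PSMA8 is at 0.

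Most RNA of the catalytic subunits was that of the constitutive proteasome. Over all 16 libraries PSMB5 (chymotrypsin-like activity) had 161 reads, PSMB6 (caspase-like) 123 and PSMB7 (trypsin-like) 108. Their immunoproteasome counterparts, which interferon induces, had 19 reads (PSMB8), 6 reads (PSMB9) and 24 reads (PSMB10). The counterparts thus made up 49 of 441 reads, or 11.1% (95% exact binomial interval 8.33% to 14.4%), with no correction for length. The interval treats all libraries as sharing 1 proportion. The counterparts summed to 34.4 ± 20.7 CPM in zdna1, 13.1 ± 8.62 in zdna2, 13.5 ± 10.2 in zdna3 and 34.0 ± 15.1 in zdna4 (SD, n = 4 libraries). PSMB5, PSMB6 and PSMB7 summed to 185 ± 66.8, 239 ± 55.0, 138 ± 53.1 and 174 ± 25.2 CPM in the same order. The share may thus differ between numbers, which was not tested. The read counts of PSMB8, PSMB9 and PSMB10 exceed the 1.31, 0.872 and 0.837 reads that the density over olfactory receptor genes predicts for their lengths. By library PSMB8 had 0 to 5 reads, PSMB9 0 to 2 and PSMB10 0 to 8, too few to compare groups. PSMB8 shares 2.30% of its exon length with the antisense gene PSMB8-AS1. The thymus subunit PSMB11 had 3 reads against 1.59 predicted, and the testis subunit PSMA8 had 0 against 1.61, a count that allows up to 3 reads. PSMB6 had 69.8 and 31.7 CPM in zdna1 CL against 35.5 and 91.2 CPM in zdna1 CC, and 83.8 and 57.2 CPM in zdna2 CL against 73.0 and 68.8 CPM in zdna2 CC. It had 26.5 and 36.5 CPM in zdna3 CL against 53.5 and 47.6 CPM in zdna3 CC, and 70.4 and 40.2 CPM in zdna4 CL against 54.0 and 132 CPM in zdna4 CC. The arms overlapped in 3 of the numbers, and in zdna3 both CL libraries lay below both CC libraries on 2 or 3 reads each.

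Summed over all 48 genes, proteasome RNA differed little between the arms, and not in the same direction in every number. The sums are in CPM after TMM scaling, a correction for library composition. They were 5985 and 5279 CPM in zdna1 CL against 6082 and 6518 CPM in zdna1 CC, and 5821 and 5974 CPM in zdna3 CL against 6544 and 6215 CPM in zdna3 CC. Both CL libraries lay below both CC libraries in these numbers. The sums were 6757 and 6858 CPM in zdna2 CL against 6141 and 6577 CPM in zdna2 CC, and 5553 and 5510 CPM in zdna4 CL against 4830 and 5362 CPM in zdna4 CC. Here both CL libraries lay above both CC libraries. On the log2 scale the difference was -0.16 ± 0.146 in zdna1, 0.10 ± 0.0716 in zdna2, -0.11 ± 0.0590 in zdna3 and 0.12 ± 0.107 in zdna4 (SD of the difference, from 2 libraries an arm), and -0.01 ± 0.0509 on average. These sums are relative to the other RNA of a library, so they give neither RNA per cell nor the number of cells.

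The direction of these sums rests on the scaling. On the scale of the deposited values, which multiply the reads of each library by 1 constant, the median log2 difference of all genes tested was 0.15 in zdna1, 0.03 in zdna2, 0.72 in zdna3 and 0.43 in zdna4, and the summed difference was 0.000392 in zdna1, 0.13 in zdna2, 0.71 in zdna3 and 0.49 in zdna4. The sum thus came to about 0 in zdna1, and its sign turned in zdna3. With TMM over every human gene the median was 0.52 and the summed difference 0.60 in zdna4. The median of all genes tested was then subtracted from the summed difference. What was left in zdna3 was -0.177 in CPM after TMM scaling and -0.0046 in the deposited values. The median comes from log2 values with a fixed CPM added to each gene, and the sums have no such addition. A change of scaling thus moves the sum and the median by unlike amounts. The change in zdna3 is therefore not a result about the proteasome genes. In zdna4 what was left lay above 0 under each of the 4 scalings, at 0.0393 to 0.0813. It was -0.150 to -0.161 in zdna1 and 0.103 to 0.107 in zdna2. The median log2 difference of the 37 genes tested, minus that of all genes tested, moved less than these sums. It was -0.16 in zdna1 and 0.13 in zdna2 under each of the 4 scalings, and -0.12 to -0.15 in zdna3. In zdna4 it was -0.016 with TMM over the genes tested, -0.012 by library totals, -0.0031 on the deposited scale and 0.0075 with TMM over every gene, so its sign turned there.

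**Figure D2:**
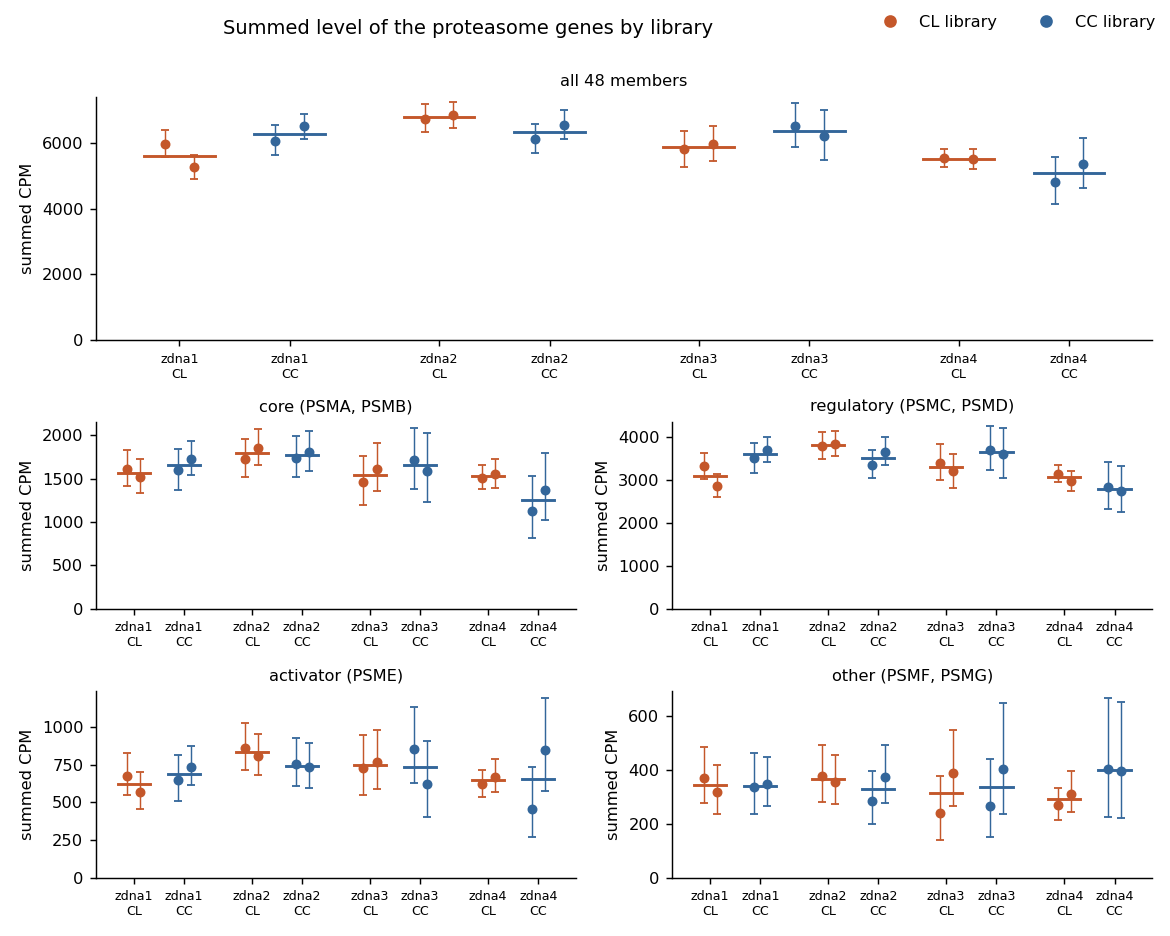
Points give the summed level of the proteasome genes in each library, in CPM after TMM scaling, for all 48 genes and for each subcomplex, with exact 95% Poisson intervals for counting error; short lines are group means. The 16 sums over all genes run from 4830 to 6858 CPM, and the zdna4 libraries are the lowest on average.

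The subcomplexes kept close proportions. Regulatory genes took 51.2% to 58.7% of the proteasome reads of a library, core genes 23.5% to 28.8%, activators 9.50% to 15.8% and the others 4.09% to 8.38% of them. The 2 zdna4 CC libraries gave both ends of the regulatory and activator ranges, the lowest core share and the highest share of the others. Core sums averaged 1567 CPM in zdna1 CL against 1665 CPM in zdna1 CC, 1796 against 1777 CPM in zdna2 CL and CC, and 1538 against 1654 CPM in zdna3 CL and CC, with overlapping libraries in all 3 numbers. In zdna4 the core sum was 1536 CPM in CL and 1253 CPM in CC, a log2 difference of 0.29 ± 0.198, with both CL libraries above both CC libraries. Regulatory sums followed the total: 3097 CPM in CL against 3602 CPM in CC of zdna1, 3813 against 3509 CPM in zdna2, 3297 against 3652 CPM in zdna3, and 3059 against 2790 CPM in zdna4. The arms did not overlap in any of the 4 numbers, with CL below CC in zdna1 and zdna3 and above it in zdna2 and zdna4. Activator sums overlapped between the arms in zdna1, zdna3 and zdna4. In zdna2 they averaged 833 CPM in CL and 744 CPM in CC, with both CL libraries above. The other genes summed to 291 CPM in zdna4 CL and 400 CPM in zdna4 CC, with both CL libraries below on 15 reads in each CC library.

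Gene by gene, few proteasome genes passed the test between arms. In zdna1, limma called 0 of the 37 tested genes at an adjusted p under 0.05, against 0.756% of all 4632 genes tested, with 4 at an unadjusted p under 0.05 (10.6% of all genes). edgeR called 0 (0.993% of all genes), as did DESeq2 (14 genes in all). The median log2 difference (on the log2(CPM + 10) scale, as are all fitted differences) was -0.16 for the proteasome genes and -0.00369 for all genes tested, and 27 of 37 lay below 0, against 50.2% of all genes. Of the 18 regulatory genes tested, 16 lay below 0, with a median of -0.20, against 8 of the 14 core genes, with a median of -0.06. In the other numbers the regulatory genes were less one-sided, with 6 of 18 below 0 in zdna2, 12 in zdna3 and 7 in zdna4, and the difference between subcomplexes was not tested. PSMD4, a ubiquitin receptor, had the lowest value. It had 140 and 76.0 CPM in CL against 124 and 234 CPM in CC, and its log2 difference was -0.67 (SE 0.313, limma adjusted p = 0.426). Its arms overlapped. PSMD11, a lid subunit, had the smallest p of the proteasome genes in this comparison and was named for that after its values were seen. It had 196 and 190 CPM in CL against 328 and 262 CPM in CC, a log2 difference of -0.58 (SE 0.227, limma adjusted p = 0.290). Both CL libraries lay below both CC libraries. PSME1 (PA28 alpha) had the highest value, 0.38 (SE 0.466, limma adjusted p = 0.818), from 55.9 and 38 CPM in CL against 17.7 and 57.0 CPM in CC.

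In zdna2, limma called 0 of 37, against 0.173% of all genes tested, with 1 at an unadjusted p under 0.05 (6.58% of all genes). edgeR called 0 (0.194% of all genes), as did DESeq2 (3 genes in all). The median was 0.12 for the proteasome genes and -0.01 for all genes, with 21 of 37 above 0, against 49.4% of all genes. PSMB5, the chymotrypsin-like subunit and the main target of proteasome inhibitors, was highest. It had 97.7 and 160 CPM in CL against 89.2 and 61.1 CPM in CC, a log2 difference of 0.69 (SE 0.431, limma adjusted p = 0.885). PSMC1 was lowest, with 14.0 and 74.4 CPM in CL against 56.8 and 91.7 CPM in CC and a log2 difference of -0.87 (SE 0.501, limma adjusted p = 0.851). The PSMC1 arms overlapped, and its count is uncertain for the overlap with NRDE2. In zdna3, limma called 0 of 37, against 0.0864% of all genes, with 3 at an unadjusted p under 0.05 (6.56% of all genes). edgeR called 0 (0.0864% of all genes), as did DESeq2 (4 genes in all). The median was -0.06 for the proteasome genes and 0.06 for all genes, with 23 of 37 below 0, against 45% of all genes.

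PSMB7 was the highest in zdna3. It had 5 and 3 reads in CL against 0 and 0 reads in CC, at least 1.66-fold higher against a floor of 3 reads over the CC group, and it did not pass (limma adjusted p = 0.416). PSMC6, an ATPase, was lowest in zdna3. It had 79.6 and 85.2 CPM in CL against 232 and 167 CPM in CC, a log2 difference of -1.16 (SE 0.509, limma adjusted p = 0.632). Both CL libraries lay below both CC libraries.

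In zdna4, limma called 2 of 37, both higher in CL, against 1.17% of all genes tested (0.907% higher), with 6 at an unadjusted p under 0.05 (10.4% of all genes). edgeR called 0 (also 1.17% of all genes), as did DESeq2 (24 genes in all). The median was 0.06 for the proteasome genes and 0.08 for all genes, with 21 of 37 above 0, against 55.8% of all genes. PSMB2, a beta subunit without a cutting site, had 182 and 156 CPM (57 and 35 reads) in zdna4 CL against 0 and 106 CPM (0 and 4 reads) in zdna4 CC. Its log2 difference was 2.40 (SE 0.531, limma adjusted p = 0.0107, edgeR adjusted p = 0.210). Without the first zdna4 CC library, the one with 0 reads, it was 0.66 with an adjusted p of 0.975, and it stayed under 0.05 without each of the other 15. The PSMB2 call thus rests on that 1 library. PSMA4, a subunit of the outer ring, had 157 and 201 CPM (49 and 45 reads) in zdna4 CL against 27.0 and 52.8 CPM (1 and 2 reads) in zdna4 CC. Its log2 difference was 1.96 (SE 0.531, limma adjusted p = 0.0495, edgeR adjusted p = 0.106). The call was lost in 11 of 16 fits that leave out a library, with adjusted p from 0.0502 to 0.485, the highest again without the first zdna4 CC library. On reads alone the CL over CC ratio was 3.21 for PSMB2 (exact 95% interval 1.21 to 12) and 4.38 for PSMA4 (1.45 to 21.6), intervals that cover counting error only. PSMC1 was lowest in zdna4, with 60.8 and 35.7 CPM in CL against 81.0 and 106 CPM in CC (log2 difference -0.85, SE 0.799, limma adjusted p = 0.817). In the other numbers PSMB2 and PSMA4 did not pass between arms.

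Averaged over the 4 numbers, limma called 0 of 37, against 0.432% of all genes, with 4 at an unadjusted p under 0.05 (9.28% of all genes). edgeR called 0 (0.475% of all genes), as did DESeq2 (14 genes in all). The median was 0.01 for the proteasome genes and 0.05 for all genes. The smallest p was that of PSMA4, with an average difference of 0.73 (SE 0.222, limma adjusted p = 0.154). PSMB5 had the largest average difference, 0.75 (SE 0.286, limma adjusted p = 0.340). Its other values were 69.8 and 69.7 CPM in zdna1 CL against 35.5 and 103 CPM in zdna1 CC, 92.8 and 109 CPM in zdna3 CL against 35.7 and 47.6 CPM in zdna3 CC, and 57.6 and 75.9 CPM in zdna4 CL against 27.0 and 26.4 CPM in zdna4 CC. The fitted difference was above 0 in all 4 numbers for 2 of the 37 genes, PSMB5 and PSMA4, against 7.54% of all genes tested. The arms of PSMB5 did not overlap in zdna2, zdna3 and zdna4, a description of a gene named for its average. PSMA5, PSMB6, PSMC1 and PSMD4, 4 of the 37, were below 0 in all 4, against 4.90% of all genes, with PSMC1 the lowest on average at -0.59 (SE 0.333, limma adjusted p = 0.596). The test that the 4 differences between arms are equal called 0 of 37 in limma, against 0.864% of all genes, with 6 at an unadjusted p under 0.05 (10.4% of all genes) and a smallest adjusted p of 0.0607 for PSMB2. edgeR called 0 there (1.23% of all genes), as did DESeq2 (27 genes in all).

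**Figure D3:**
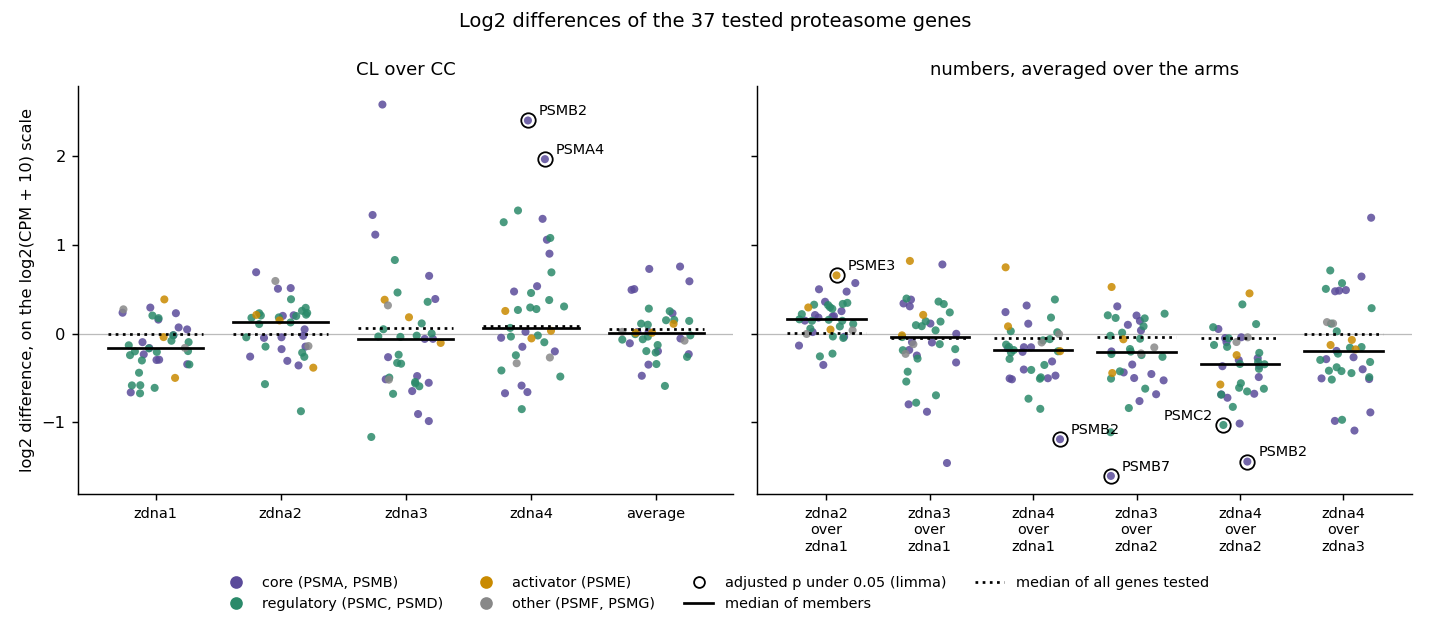
Points give the log2 difference of each of the 37 tested proteasome genes on the log2(CPM + 10) scale, CL over CC at left and between numbers at right, coloured by subcomplex; solid lines are the medians of these genes, dotted lines those of all 4632 genes tested, and ringed points passed at an adjusted p under 0.05. PSMB2 (2.40) and PSMA4 (1.96) are ringed in zdna4, and the widest shift of the median between numbers is that of zdna4 over zdna2 (-0.34).

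Averaged over the arms, the proteasome sum was 5966 ± 514 CPM in zdna1, 6584 ± 317 CPM in zdna2, 6138 ± 316 CPM in zdna3 and 5314 ± 333 CPM in zdna4 (SD, n = 4 libraries). The 4 libraries of zdna4 lay below the 4 of zdna2, at 4830 to 5553 CPM against 6141 to 6858 CPM. The mean was lower in zdna4 than in zdna2 under each of the 4 scalings, but on the deposited scale the libraries overlapped, at 4750 to 7741 in zdna4 against 7020 to 7929 in zdna2. The place of zdna3 changed with the scaling: on the deposited scale its sum was 2479 ± 695, lower than the 7409 ± 838 of zdna1, the 7540 ± 424 of zdna2 and the 6494 ± 1373 of zdna4. Core sums were 1616 ± 88.1 CPM in zdna1, 1787 ± 60.3 CPM in zdna2, 1596 ± 105 CPM in zdna3 and 1395 ± 191 CPM in zdna4. Regulatory sums were 3350 ± 354 CPM in zdna1, 3661 ± 215 CPM in zdna2, 3475 ± 225 CPM in zdna3 and 2925 ± 176 CPM in zdna4. Sums of the other genes did not have zdna4 lowest, at 343 ± 22.2 CPM in zdna1, 348 ± 43.5 CPM in zdna2, 325 ± 84.2 CPM in zdna3 and 346 ± 65.9 CPM in zdna4.

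The F test among the numbers called 3 of 37 genes in limma, PSMB2 (adjusted p = 0.00900), PSMC2 (adjusted p = 0.0295) and PSME3 (adjusted p = 0.0412), against 8.85% of all genes tested, so the share was close to the background. At an unadjusted p under 0.05 there were 10, or 27.0%, against 24.3% of all genes. edgeR called 2, PSME3 (adjusted p = 0.0218) and PSMD2 (adjusted p = 0.0484), against 10.6% of all genes, and DESeq2 called 0 (209 genes in all). The F test call was lost in 9 of 16 fits that leave out a library for PSME3 (adjusted p 0.0532 to 0.268), in 4 for PSMC2 (0.0622 to 0.440) and in 1 for PSMB2, that without the first zdna4 CC library (0.514). In a fit without zdna4 only PSME3 of the 3 passed, with an adjusted p of 0.0193 (0.518 for PSMB2 and 0.468 for PSMC2). The 6 pairs of numbers share libraries, so their counts are given side by side. In zdna2 over zdna1 limma called 1 gene, higher, against 2.5% of all genes (0.799% higher), with 2 at an unadjusted p under 0.05 (15.5% of all genes). In zdna3 over zdna1 it called 0, against 4.49% of all genes, with 6 at an unadjusted p under 0.05 (18% of all genes). In zdna4 over zdna1 it called 1, lower, against 0.691% of all genes (0.453% lower), with 3 at an unadjusted p under 0.05 (9.89% of all genes). At most 1 of the 37 was called in each of these pairs with zdna1. In zdna3 over zdna2 limma called 1, lower, against 6% of all genes (3.2% lower), with 5 at an unadjusted p under 0.05 (20.4% of all genes). In zdna4 over zdna2 it called 2, both lower, against 2.48% of all genes (1.25% lower), with 11 at an unadjusted p under 0.05 (15.6% of all genes). In zdna4 over zdna3 it called 0, against 4.75% of all genes, with 6 at an unadjusted p under 0.05 (17.9% of all genes). edgeR called 1 in zdna2 over zdna1 (2.76% of all genes), 0 in zdna3 over zdna1 (5.42%), 0 in zdna4 over zdna1 (0.604%), 1 in zdna3 over zdna2 (6.54%), 0 in zdna4 over zdna2 (3.37%) and 1 in zdna4 over zdna3 (6.02%), the last being PSMD2 (adjusted p = 0.0438). DESeq2 called 0 in the 6 pairs. Its calls over all genes in these pairs are not given here, so this count has no background beside it. The median of the proteasome genes was 0.16 in zdna2 over zdna1, against 0.00372 for all genes, with 29 of 37 above 0 against 50.3% of all genes. It was -0.34 in zdna4 over zdna2, against -0.05 for all genes, with 32 of 37 below 0 against 54.8% of all genes.

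On the deposited scale the median of all genes tested was -1.48 in zdna3 over zdna1, -1.36 in zdna3 over zdna2 and 1.38 in zdna4 over zdna3, so each difference with zdna3 depends on the scaling. Relative to the median of all genes, the proteasome median in zdna4 over zdna2 was -0.30 with TMM over the genes tested, -0.30 by library totals, -0.29 on the deposited scale and -0.31 with TMM over every gene. In zdna4 over zdna3 the proteasome median was -0.20 with TMM over the genes tested and 1.26 on the deposited scale, which is -0.19 and -0.12 relative to all genes. The called differences of PSME3, PSMB2, PSMC2 and PSMB7 that follow kept their sign under all 4 scalings. On the deposited scale the calls of PSME3 in zdna2 over zdna1 (adjusted p = 0.0939) and of PSMB2 in zdna4 over zdna1 (adjusted p = 0.0535) were lost.

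PSME3, on chromosome 17 at chr17:40985414-40995777 in hg19 on the plus strand, was the gene called by limma and by edgeR. It had 384 and 309 CPM in zdna2 CL and 349 and 252 CPM in zdna2 CC, against 175 and 158 CPM in zdna1 CL and 257 and 222 CPM in zdna1 CC. In the CL arm both zdna2 libraries lay above both of zdna1, and in the CC arm they overlapped, at 252 CPM in zdna2 and 257 CPM in zdna1. Its log2 difference was 0.65 (SE 0.175, limma adjusted p = 0.0272, edgeR adjusted p = 0.0108). The call was lost in 6 of 16 fits that leave out a library (each of the 4 of zdna1 and the first of zdna2 CL and of zdna2 CC), with adjusted p from 0.0560 to 0.183, and without array weights (adjusted p = 0.689). PSME3 had 292 and 243 CPM in zdna3 CL, 285 and 143 CPM in zdna3 CC, 224 and 192 CPM in zdna4 CL and 108 and 423 CPM in zdna4 CC. Its counts varied more between libraries than those of any other proteasome gene. Their index of dispersion was 2.75, against a median of 1.11 for the proteasome genes tested and 1.27 for all genes tested. This index is taken over all 16 libraries, so it includes differences between groups.

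PSMB2, at chr1:36065143-36107127 on the minus strand of hg19, had 119 and 190 CPM in zdna1 CL, 204 and 171 CPM in zdna1 CC, 202 and 195 CPM in zdna2 CL, and 211 and 199 CPM in zdna2 CC. It had 119 and 195 CPM in zdna3 CL and 178 and 143 CPM in zdna3 CC. The 2 zdna4 CL libraries lay within the range of zdna1 and of zdna3 and below the 4 of zdna2, and the zdna4 CC libraries lay below all others. Its log2 difference was -1.19 in zdna4 over zdna1 (SE 0.312, limma adjusted p = 0.05 after rounding and under it before, edgeR adjusted p = 0.370) and -1.44 in zdna4 over zdna2 (SE 0.314, limma adjusted p = 0.00533, edgeR adjusted p = 0.0529). The call over zdna1 was lost in 14 of 16 fits that leave out a library (adjusted p 0.0512 to 0.945). The call over zdna2 was lost without the first zdna4 CC library (adjusted p = 0.598) and stayed without each of the other 15. It was also lost without array weights (adjusted p = 0.116) and with no filter (adjusted p = 0.1). PSMC2, an ATPase at chr7:102987971-103009842 on the plus strand of hg19, had 179 and 147 CPM in zdna4 CL and 27.0 and 132 CPM in zdna4 CC, against 251 and 223 CPM in zdna2 CL and 211 and 191 CPM in zdna2 CC. All 4 libraries of zdna4 lay below the 4 of zdna2. The log2 difference was -1.03 (SE 0.26, limma adjusted p = 0.0171, edgeR adjusted p = 0.0580), and the call was lost without the first zdna4 CC library (adjusted p = 0.545) and without the first zdna2 CC library (adjusted p = 0.0572), as well as without array weights (adjusted p = 0.0809) and with no filter (adjusted p = 0.0877). PSMC2 had 189 and 190 CPM in zdna1 CL, 151 and 177 CPM in zdna1 CC, 146 and 182 CPM in zdna3 CL, and 250 and 286 CPM in zdna3 CC.

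PSMB7, the trypsin-like subunit at chr9:127115744-127177721 on the minus strand of hg19, was the other gene that both tools called. It had 66.3 and 36.5 CPM in zdna3 CL and 0 and 0 CPM in zdna3 CC, against 48.9 and 97.3 CPM in zdna2 CL and 64.9 and 53.5 CPM in zdna2 CC. The libraries overlapped in the CL arm and not in the CC arm. The log2 difference was -1.60 (SE 0.487, limma adjusted p = 0.0345, edgeR adjusted p = 0.0351), a fitted value that depends on the added 10 CPM since 2 of the 4 zdna3 libraries held 0 reads. The call was lost in 7 of 16 fits that leave out a library, those of zdna3 and all of zdna2 but the first CL library (adjusted p 0.0525 to 0.128). PSMB7 shares 39.5% of its exon length with LOC100129034 on the opposite strand, which makes its count uncertain. It had 55.9 and 69.7 CPM in zdna1 CL, 35.5 and 74.1 CPM in zdna1 CC, 28.8 and 49.1 CPM in zdna4 CL, and 81.0 and 52.8 CPM in zdna4 CC. PSMA4 had 76.8 and 133 CPM in zdna1 CL, 79.8 and 120 CPM in zdna1 CC, 147 and 200 CPM in zdna2 CL, 81.1 and 168 CPM in zdna2 CC, 172 and 243 CPM in zdna3 CL, and 143 and 167 CPM in zdna3 CC. It passed in no pair of numbers. PSMD2, with the most reads of the proteasome genes (1055), had 413 and 469 CPM in zdna4 CL and 540 and 370 CPM in zdna4 CC, against 650 and 681 CPM in zdna3 CL and 660 and 572 CPM in zdna3 CC. The 4 libraries of zdna4 lay below the 4 of zdna3, with a log2 difference of -0.52 (SE 0.190, limma adjusted p = 0.116, edgeR adjusted p = 0.0438) that turned to 1.06 on the deposited scale (limma adjusted p = 2.28e-06), or -0.32 relative to all genes.

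**Figure D4:**
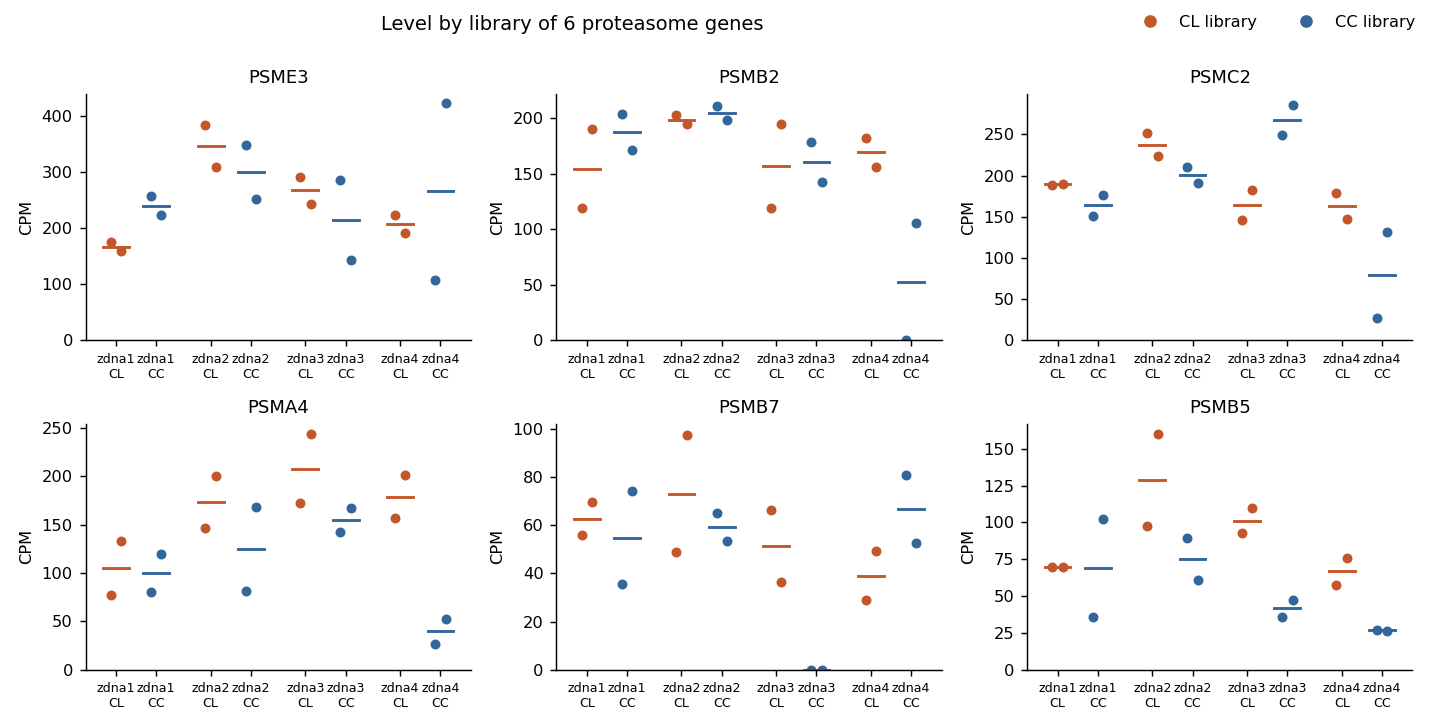
Points give the level of 6 proteasome genes in each library in CPM after TMM scaling, CL libraries left of CC libraries in each number, and short lines are group means. PSMB2 is at 0 and 106 CPM in zdna4 CC, PSMB7 is at 0 in both zdna3 CC libraries, and PSME3 is highest on average in zdna2 CL.

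The promoters of the genes called among the numbers are shown for the sites named in their regulation. Sequences are 300 bases, 250 before to 50 after the annotated start, from RefSeq on GRCh38.p14, a later build than the hg19 of the counts, and capitals mark matches on either strand. Of the 48 genes 42 had such a window, and 27305 genes in all. Where a gene had more than 1 window, as 8 of the proteasome genes did, only the first listed was used. The antioxidant response element bound by NFE2L1, TGACNNNGC, was in 13 of the 42 windows (31.0%), against 13.6% of all windows. CCAAT, the box of NF-Y, was in 19 (45.2%), against 35.7% of all. CACGTG, the E-box of MYC, was in 3 (7.14%), against 7.43% of all, and CGCGCGCG, an alternating run of the kind known to favour the left-handed helix, was in 1, that of PSMD2 (2.38%), against 3.19% of all. PSME3, which lies at chr17:42833147-42833446 on the plus strand, holds CACGTG and, as ATTGG, the reverse complement of CCAAT. PSMB2, at chr1:35641477-35641776 on the minus strand, and PSMC2, at chr7:103347393-103347692 on the plus strand, each hold CCAAT itself. None of the 3 windows holds TGACNNNGC or CGCGCGCG, which says nothing of the factors.
PSME3: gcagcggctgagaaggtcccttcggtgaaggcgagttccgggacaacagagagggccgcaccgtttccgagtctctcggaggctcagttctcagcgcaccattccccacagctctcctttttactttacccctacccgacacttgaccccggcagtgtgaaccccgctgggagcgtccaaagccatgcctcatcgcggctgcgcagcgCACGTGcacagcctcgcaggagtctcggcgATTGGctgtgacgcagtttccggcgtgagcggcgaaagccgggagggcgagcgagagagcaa
PSMB2: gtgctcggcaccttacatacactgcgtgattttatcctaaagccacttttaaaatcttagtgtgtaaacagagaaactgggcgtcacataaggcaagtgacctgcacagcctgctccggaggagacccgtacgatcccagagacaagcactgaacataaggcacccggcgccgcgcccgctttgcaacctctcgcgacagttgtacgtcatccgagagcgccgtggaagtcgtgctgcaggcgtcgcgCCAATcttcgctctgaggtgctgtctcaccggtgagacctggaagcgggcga
PSMC2: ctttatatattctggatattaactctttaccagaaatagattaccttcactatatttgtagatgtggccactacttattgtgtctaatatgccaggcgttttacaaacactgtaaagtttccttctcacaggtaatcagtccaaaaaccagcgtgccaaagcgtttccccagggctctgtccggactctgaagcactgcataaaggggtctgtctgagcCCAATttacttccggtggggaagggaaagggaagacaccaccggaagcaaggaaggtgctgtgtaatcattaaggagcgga

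The rest of the ubiquitin system was described from 6 lists. In the comparison of arms averaged over the numbers, limma called none of the 11 tested genes of ubiquitin and its loading, the 8 proteasome partners named outside the PSM series, the 13 of substrate delivery, the 6 transcription factors and activators of proteasome genes, the 9 of antigen processing or the 14 of the COP9 signalosome and cullin ligases. The list medians lay between -0.07 and 0.10, against 0.05 for all genes. The smallest p belonged to UBQLN4, a shuttle that carries ubiquitylated proteins to the proteasome, with 0.90 (SE 0.243, limma adjusted p = 0.0807, edgeR adjusted p = 0.0604), and to RAD23B, another shuttle, with 0.39 (SE 0.141, limma adjusted p = 0.279). ELOB, an adaptor of cullin ligases, had 0.64 (SE 0.299, limma adjusted p = 0.495). Of the 12 lineage markers 4 were high enough to test. Averaged between arms limma called 1 of these, SPARC, with 0.38 (SE 0.0906, limma adjusted p = 0.0339), against 0.432% of all genes tested. COL1A1 and COL5A1, 2 of the 4, passed the F test among the numbers, against 8.85% of all genes tested.

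In the F test among the numbers limma called 2 of the 11 tested genes of ubiquitin and its loading and 2 of the 13 of substrate delivery. It called 1 of the 6 of proteasome gene transcription. It called 0 of the 8 partners, of the 9 of antigen processing and of the 14 of the COP9 list, against 8.85% of all genes tested. UBA6, SQSTM1, VCP and NFE2L1 were among the list genes that passed. NFE2L1, the factor that induces proteasome genes, had 385 and 401 CPM in zdna3 CL and 428 and 357 CPM in zdna3 CC, against 216 and 160 CPM in zdna2 CL and 203 and 138 CPM in zdna2 CC. All 4 libraries of zdna3 lay above the 4 of zdna2, with a log2 difference of 1.11 (SE 0.223, limma adjusted p = 0.000632, edgeR adjusted p = 1.42e-05) that turned to -0.37 on the deposited scale, or 0.99 relative to the median of all genes there. In zdna3 over zdna2 the median of the 37 proteasome genes was -0.20, against -0.04 for all genes. SQSTM1, the autophagy receptor p62, averaged 534 ± 59.7 CPM in zdna3, 257 ± 27.1 CPM in zdna2 and 226 ± 57.3 CPM in zdna1 (SD, n = 4), and its log2 difference was 1.23 in zdna3 over zdna1 (SE 0.205, limma adjusted p = 2.47e-05) and -0.38 on the deposited scale, or 1.10 relative to all genes. VCP, the segregase that hands substrates to the proteasome, fell in zdna4 relative to zdna3, by 0.97 on the log2 scale (SE 0.216, limma adjusted p = 0.00276). On the deposited scale its difference was 0.59, or -0.78 relative to all genes. VCP had 132 to 384 CPM in zdna4 against 476 to 606 CPM in zdna3. UBA6, an enzyme that loads ubiquitin, fell by 1.34 in zdna3 relative to zdna2 (SE 0.343, limma adjusted p = 0.00909). ECPAS, a proteasome adaptor, fell by 0.79 in zdna3 relative to zdna2 (limma adjusted p = 0.0290). COPS3, a subunit of the COP9 signalosome, fell by 1.16 in zdna4 relative to zdna2 (limma adjusted p = 0.0343, edgeR adjusted p = 0.0485). COPS3 had 26.4 to 141 CPM in zdna4 against 122 to 195 CPM in zdna2, so the libraries overlapped. The part of the zdna4 CC libraries in the differences of VCP and COPS3 was not tested.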

How the data were processed

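Total RNA of U2OS cells was extracted with Trizol and made into libraries with an Abclonal kit, per the labels' protocols. Per the submitters' processing notes, Trim Galore 0.6.6, STAR and bedtools 2.29.2 were used and hg19 and dm6 are named, with no role given. Per the file headers, featureCounts 2.0.1 assigned uniquely aligned pairs to the exons of each gene, without a strand option, on hg19 plus the extra sequence of the number. Reads of processed copies of a gene elsewhere in the genome cannot be fully told apart from its own.

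The deposited values are a signal, counts multiplied by 1 constant per library (0.115 to 0.802 per read) whose origin is not given in the sources used here. A folder name in the file headers holds the word spikein, the same in all 16 files, and whether the constant comes from a spike-in was not settled. If it does, the deposited scale would carry changes in total RNA that TMM removes. Dividing by it gave whole reads within 0.1 read for 100% of the values. Exon length is that of the file headers' annotation. Depth was 39335 to 310187 human-gene reads. Intervals and floors cover counting error only.

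limma 3.58.1 (R 4.3.3) was run on log2(CPM + 10), with TMM factors (edgeR 4.0.16) taken from the 4632 human genes that averaged 50 CPM or more, 1 fit of 8 group means, array weights per group, a mean-variance trend and Benjamini-Hochberg adjustment over all genes tested, at 0.05, two-sided. Alternatives were edgeR's quasi-likelihood test and DESeq2 1.42.0 on the recovered reads, 3 other scalings, 2 other pseudocounts, other filters, no array weights, a replicate block, each library left out in turn with the array weights of the full fit (the lone library of a group is then assumed to vary like the others), the 4 libraries of a number alone, and zdna4 left out. Scripts were tested on simulated data.

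Nothing says that replicates are separate cultures, so p-values may measure technical spread. Chi-square tests over genes found no difference between replicates in zdna1 CC (p = 0.101), zdna2 CL (p = 0.279) and zdna3 CC (p = 0.743), but the share of the extra sequence differed within all 8 pairs (p at most 0.00183), so each was kept as 2 libraries.

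The proteasome genes, the gene lists and the naming rule were chosen with earlier results of these data known. Genes are named if they passed a test, are PSMB5 to PSMB10, have the largest positive or negative difference between arms, the smallest p among numbers, or the highest or lowest level per length of their ring, and from each list up to 4 with the smallest p on average between arms. Some genes of the lists that this rule would name are not reported here.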

Additional observations from a re-analysis of the deposited data

Results flagged for a closer look

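Summed proteasome reads moved in opposite directions between arms in different numbers: the log2 difference of CL over CC was 0.12 in zdna4 and -0.16 in zdna1, a gap of 0.28, with both CL libraries above both CC libraries in zdna4 and below them in zdna1. Summed regulatory reads did the same, at 0.13 in zdna4 and -0.22 in zdna1, a gap of 0.351. Neither difference was tested, the zdna4 CC libraries hold 179 and 203 proteasome reads, and their olfactory receptor reads are the highest of the series. On the scale of the deposited values the sum was 0.49 in zdna4 and 0.00 in zdna1. With TMM over the genes tested, the median log2 difference of all genes tested was 0.08 in zdna4 and -0.00369 in zdna1. Relative to it, the median of the proteasome genes tested was -0.016 in zdna4 and -0.16 in zdna1.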

How the results depend on the processing

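The counts below are given without the share of all genes called under each alternative, so they are not a result about the proteasome genes. On the deposited scale the median of all genes tested was -1.48 in zdna3 over zdna1, -1.36 in zdna3 over zdna2 and 1.38 in zdna4 over zdna3. Counts of called proteasome genes between arms were 0 in zdna1 and zdna2 under each alternative run. In zdna3 the count was 7 on the deposited scale and 0 under the others. In zdna4, where the report gives 2, it was 0 with edgeR, with DESeq2, with no filter and with only the 4 libraries of that number, 1 with a pseudocount of 2 or no array weights, 4 on the deposited scale, 6 using TMM factors from every human gene, and 0 to 3 with a library left out. The averaged arms gave 8 on the deposited scale, 1 using TMM factors from every human gene and 0 to 1 with a library left out. The test that the arms differ equally in the 4 numbers gave 1 with library totals, TMM over every human gene or a filter at 20 CPM, 2 on the deposited scale and 0 to 1 with a library left out. Among numbers the 3 calls became 0 with DESeq2 or no filter, 1 with no array weights (PSMB7, which is not among the 3) or without zdna4 (PSME3), 8 with TMM over every human gene, 36 on the deposited scale and 1 to 4 with a library left out; the 5 over the pairs became 3 with edgeR or a pseudocount of 30, 0 with DESeq2, 2 with no filter or without zdna4, 19 with TMM over every human gene, 106 on the deposited scale and 1 to 10 with a library left out. A replicate block gave 2 in zdna4, 3 among numbers and 4 over the pairs, with 0 between arms elsewhere, and the call of PSMB2 in zdna4 over zdna1 was lost (adjusted p = 0.0617), but same-numbered libraries did not deviate together (correlations of -0.0195 to 0.0431 over 28 pairs of groups), so the numbers are not taken as pairs. Summed differences moved to 0.000392 in zdna1, 0.711 in zdna3, 0.489 in zdna4 and 0.333 on average on the deposited scale. Using TMM factors from every human gene they moved to 0.598 in zdna4 and 0.141 on average. The sign thus changed in zdna3 and the average, and the zdna1 sum came to about 0 on the deposited scale. With a library left out, the zdna3 sum ranged from -0.187 to -0.0758. Differences with zdna3 of NFE2L1, SQSTM1, VCP and PSMD2 also changed sign on the deposited scale. A scaling multiplies all genes of a library by 1 constant, so sums, fitted differences and the median of all genes shift with it. The added 10 CPM is the same under each scaling, so fitted differences relative to all genes can also change with the scaling alone. The cause of the changes under the other alternatives was not tested. Depth limits each gene: 1 read is up to 25.4 CPM, and 11 proteasome genes were too low to test.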

Other observations

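Subunits that carry other names were measured beside the PSM genes. ADRM1, a ubiquitin receptor of the regulatory particle, had 122 to 278 CPM over the 16 libraries, SEM1, a small lid subunit, 62.8 to 199 CPM, and POMP, the maturation protein of the core, 13.4 to 85.9 CPM. None of them passed the F test among the numbers in limma (adjusted p = 0.179 for ADRM1, 0.558 for SEM1 and 0.35 for POMP). ADRM1 averaged 154 ± 9.32 CPM in zdna4 and 257 ± 26.1 CPM in zdna3 (SD, n = 4). POMP averaged 69.3 ± 10.8 CPM in zdna1, 71.6 ± 21.1 CPM in zdna2, 47.8 ± 16.4 CPM in zdna3 and 33.7 ± 17.2 CPM in zdna4.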
